A study of Mus musculus with 37 samples.

Results

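Atrial and ventricular heart muscle cells build the same contractile machine from different gene copies, and 8 genes that mark the chambers were followed across mouse hearts after cardiac arrest or after adrenaline alone. The atrial members were Myl7, Sln, Myl4 and Bmp10, and the ventricular members were Myl2, Myl3, Irx4 and Hey2. Each was found by its symbol among the 56748 genes of the expression table. They were chosen on their FPKM in these same libraries, as known chamber markers whose levels had already been seen to vary, so their values are given as a description and the calls below support nothing by themselves.

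The 37 libraries came from ventricular tissue of male and female C57BL/6J mice aged 8 to 10 weeks; the labels name the tissue only as heart, and per the study's methods it was left ventricle with the apex discarded. Naïve mice (n = 5) were anaesthetised and neither intubated nor injected. Adr mice, which the labels call sham, were intubated and ventilated, received saline through the chest wall into the left ventricle, and 8 min later received adrenaline by the same route. Arrest mice received 0.5 M potassium chloride in place of saline, stayed in asystole for 8 min, and were resuscitated with adrenaline and chest compressions. Adr and Arrest hearts were taken 0.5, 1, 3 or 7 days later, with 4 libraries per arm and time. Levels are FPKM, sequenced fragments scaled to gene length and to a factor for each library, so genes can be compared per length. Libraries held 13.2 to 30.2 M fragments on genes.

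Myosin, the motor of the sarcomere, carries an essential and a regulatory light chain on each head. In the adult atrium these are Myl4 (essential) and Myl7 (regulatory), and in the ventricle Myl3 (essential) and Myl2 (regulatory). Sln encodes sarcolipin, a small membrane protein that slows the calcium pump of the sarcoplasmic reticulum in atrial muscle, the role that phospholamban (Pln) has in the ventricle. Bmp10 is a secreted ligand of the BMP family that in the adult comes chiefly from right atrial muscle and acts on endothelium through the receptor Acvrl1. Irx4 and Hey2 are transcription factors of ventricular muscle, and both hold back atrial genes there.

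The proximal promoters of the light chain genes are shown because Myl7 and Myl4 varied together in these libraries, and that of Bmp10 because it gave no fragments. They are RefSeq sequences on GRCm38.p6, 5′ to 3′ on the strand of the gene, ending at the start of transcription (for Myl3, at the more upstream start of the GENCODE annotation). Of the 8 members, 7 had an entry and Sln had none. Capitals mark a CArG box, the site of serum response factor, or AGATAA, which the cardiac zinc finger factors bind.
Myl7 (chr11:5898783-5899032, minus strand): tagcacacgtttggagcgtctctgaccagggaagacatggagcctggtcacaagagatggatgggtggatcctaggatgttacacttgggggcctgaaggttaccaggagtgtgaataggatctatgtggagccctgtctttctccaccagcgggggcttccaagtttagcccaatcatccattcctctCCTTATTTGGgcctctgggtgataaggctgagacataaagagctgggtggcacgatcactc
Myl4 (chr11:104550413-104550662, plus strand): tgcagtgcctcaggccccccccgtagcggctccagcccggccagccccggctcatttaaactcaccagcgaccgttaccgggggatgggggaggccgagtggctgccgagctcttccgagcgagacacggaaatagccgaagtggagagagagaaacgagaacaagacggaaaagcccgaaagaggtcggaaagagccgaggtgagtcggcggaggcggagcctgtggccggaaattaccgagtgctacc
Myl3 (chr9:110763428-110763645, plus strand): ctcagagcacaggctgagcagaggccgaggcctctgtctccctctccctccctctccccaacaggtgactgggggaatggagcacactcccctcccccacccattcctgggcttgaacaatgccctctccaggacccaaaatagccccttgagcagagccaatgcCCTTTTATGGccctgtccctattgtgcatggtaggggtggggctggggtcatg
Bmp10 (chr6:87428744-87428993, plus strand): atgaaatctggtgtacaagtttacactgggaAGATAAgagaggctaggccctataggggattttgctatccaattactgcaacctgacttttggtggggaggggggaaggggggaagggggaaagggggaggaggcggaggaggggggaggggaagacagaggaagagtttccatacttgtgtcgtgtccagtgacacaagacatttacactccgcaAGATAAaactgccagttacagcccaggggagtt

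A CArG box lay in the Myl7 and Myl3 windows, beginning 61 and 53 bases before the end of the window. It was present in 1.47% of 32851 promoter windows. The Bmp10 window held AGATAA at 2 positions, and 9.99% of all windows held it on either strand. TATAAA (12.4% of all windows), the T-box motif AGGTGT (11.8%), the E-box CACGTG (6.02%), the nuclear receptor motif AGGTCA (14.02%) and the MEF2 site (2.92%) had no match on either strand in these 4 windows. The CArG and MEF2 patterns were added after the windows had been read, and no motif was scored against the expression data. The RefSeq windows of Myl2 do not start near the annotated GENCODE start and are not shown, and those of Irx4 and Hey2 held no match.

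The atrial members divided the libraries, and the division did not follow time. Myl7, Sln and Myl4 stood high together in 9 libraries, 8 of them Adr and 1 Arrest, and low in the rest, Naïve included. The libraries that ranked 1 to 9 for Myl7 were the same 9 that ranked highest for Sln and for Myl4. Down this order Myl7 dropped most between ranks 6 and 7, by 3.53 times. It dropped by 1.75 times between ranks 8 and 9 and by 1.54 times between ranks 9 and 10. The set of 9 is thus a cut along a graded order, not a separate class. The ventricular members did not set these 9 libraries apart.

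**Figure D1:**
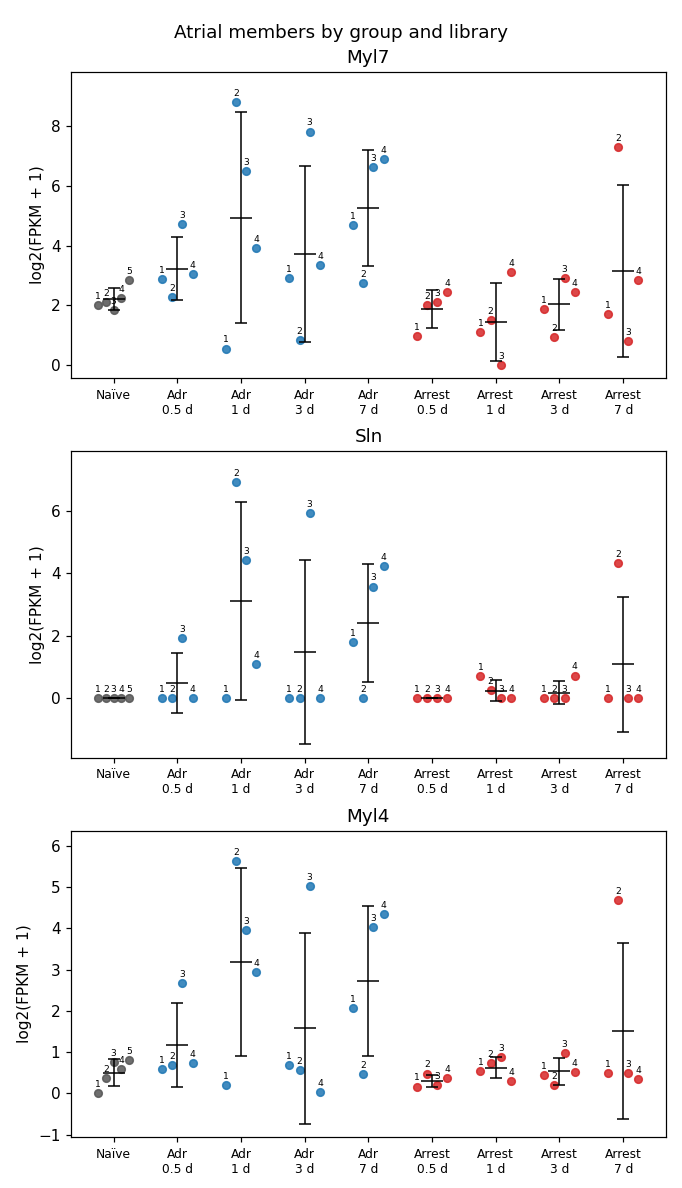
Levels of Myl7, Sln and Myl4 as log2(FPKM + 1), by group; each point is a library, the number beside it is its replicate, and the black bars are the mean ± SD on this scale. The highest points are replicate 2 of Adr at 1 day, replicate 3 of Adr at 3 days and replicate 2 of Arrest at 7 days in the panels of Myl7 and Myl4, and no Naïve library is among the high points of any panel.

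Myl7, the atrial regulatory light chain, was measured at 3.03, 3.31, 2.58, 3.74 and 6.17 FPKM in Naïve replicates 1 to 5. In Adr it stood at 6.35, 3.83, 25.4 and 7.19 FPKM at 0.5 days and at 0.461, 445, 89.6 and 14.1 FPKM at 1 day. Libraries of the same Adr group at 1 day thus ranged from below every Naïve library to above all others in the series. At 3 days the Adr libraries read 6.53, 0.778, 225 and 9.12 FPKM for Myl7, and at 7 days 24.7, 5.69, 99.0 and 119.5 FPKM. At each of the 4 times, Adr held 3 libraries above the highest Naïve library for Myl7, whereas for Myl4 it held 1, 3, 1 and 3 in turn.

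In Arrest, Myl7 stood at 0.968, 3.01, 3.27 and 4.38 FPKM at 0.5 days and at 1.16, 1.86, 0 and 7.69 FPKM at 1 day. At 3 days the Arrest libraries gave 2.62, 0.909, 6.54 and 4.43 FPKM, and at 7 days 2.25, 157, 0.751 and 6.14 FPKM. A single Arrest library, replicate 2 at 7 days, reached the range of the high Adr libraries. Counted against the highest Naïve library, Myl7 was higher in 12 of 16 Adr and 3 of 16 Arrest libraries. The lowest of these Adr libraries stood at 6.35 FPKM, against 6.17 FPKM in the highest Naïve library. This library and the Adr libraries at 6.53, 7.19 and 9.12 FPKM had no Sln, and their Myl4 was below the highest Naïve library. For Myl4 the counts were 8 of 16 and 3 of 16, and Sln was above 0 in 8 of 16 and 4 of 16. No share over all genes is given for these counts, so they are not read as a difference between the arms.

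The highest Myl7 level, in replicate 2 of Adr at 1 day, rested on 4066 fragments (95% Poisson interval 432 to 459 FPKM). That of Adr at 3 days replicate 3 rested on 3204 fragments (217 to 233 FPKM). These intervals cover counting error only and are far narrower than the distance between libraries of 1 group.

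Sln was read more nearly as present or absent. It had no fragment in 25 of the 37 libraries, among them all 5 Naïve libraries and all 4 Arrest libraries at 0.5 days, where 3 fragments would correspond to 0.0777 to 0.176 FPKM depending on depth. In Adr it was found in replicate 3 at 0.5 days (2.84 FPKM), in replicates 2, 3 and 4 at 1 day (121, 20.4 and 1.12 FPKM), in replicate 3 at 3 days (59.6 FPKM), and in replicates 1, 3 and 4 at 7 days (2.503, 10.9 and 17.7 FPKM). The other 8 Adr libraries were at 0.

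In Arrest, Sln stood at 19.1 FPKM in replicate 2 at 7 days. The remaining Arrest libraries above 0 were replicates 1 and 2 at 1 day (0.637 and 0.196 FPKM) and replicate 4 at 3 days (0.653 FPKM). Their Sln rested on 11, 4 and 28 fragments, against 2470 fragments in the highest library.

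Myl4, the atrial essential light chain, stood at 0, 0.285, 0.689, 0.507 and 0.753 FPKM in Naïve. In Adr the values were 0.496, 0.612, 5.43 and 0.665 FPKM at 0.5 days and 0.147, 48.3, 14.6 and 6.64 FPKM at 1 day. Again the Adr libraries of 1 day lay both at the level of Naïve and far above it. At 3 days Myl4 gave 0.602, 0.481, 31.6 and 0.0258 FPKM and at 7 days 3.18, 0.382, 15.5 and 19.4 FPKM in Adr. The high libraries were those that were high for Myl7 and Sln.

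Arrest libraries had 0.123, 0.395, 0.153 and 0.302 FPKM of Myl4 at 0.5 days and 0.461, 0.669, 0.851 and 0.229 FPKM at 1 day. At 3 days they had 0.363, 0.159, 0.984 and 0.424 FPKM and at 7 days 0.414, 24.9, 0.414 and 0.280 FPKM. Outside replicate 2 at 7 days, no Arrest library passed 0.984 FPKM, whereas the highest Naïve library was at 0.753 FPKM.

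The proportions of the atrial members were not the same in each high library. Per 100 FPKM of Myl7, Sln amounted to 27.2 in replicate 2 of Adr at 1 day, 26.5 in replicate 3 of Adr at 3 days and 22.8 in replicate 3 of Adr at 1 day. It amounted to 12.1 in replicate 2 of Arrest at 7 days and to 14.8, 11.03 and 10.1 in replicates 4, 3 and 1 of Adr at 7 days. Myl4 amounted to between 10.9 and 21.4 per 100 FPKM of Myl7 in 8 of the 9 libraries, and to 47.2 in replicate 4 of Adr at 1 day, where Myl7 was lowest of the 9 at 14.1 FPKM. The library next in Myl7, replicate 4 of Adr at 3 days (9.12 FPKM), had no Sln and 0.0258 FPKM of Myl4.

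Bmp10 stood apart from the other atrial members. It gave 0 fragments in all 37 libraries, among them the library with 445 FPKM of Myl7. With a gene length of 4490 bases, 3 fragments would correspond to 0.0205 to 0.0517 FPKM, so a level above that range would have been detected. It passed no filter and was not tested.

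The ventricular members were present throughout. Across the 37 libraries Myl2 ranged from 613 to 5032 FPKM with a median of 3373 FPKM, and Myl3 from 494 to 3418 FPKM with a median of 2286 FPKM. Irx4 ranged from 4.08 to 14.5 FPKM and Hey2 from 0.308 to 4.05 FPKM. The highest Myl2 level was 8.21 times the lowest, while the highest Myl7 level was 100.5 times its own median.

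**Figure D2:**
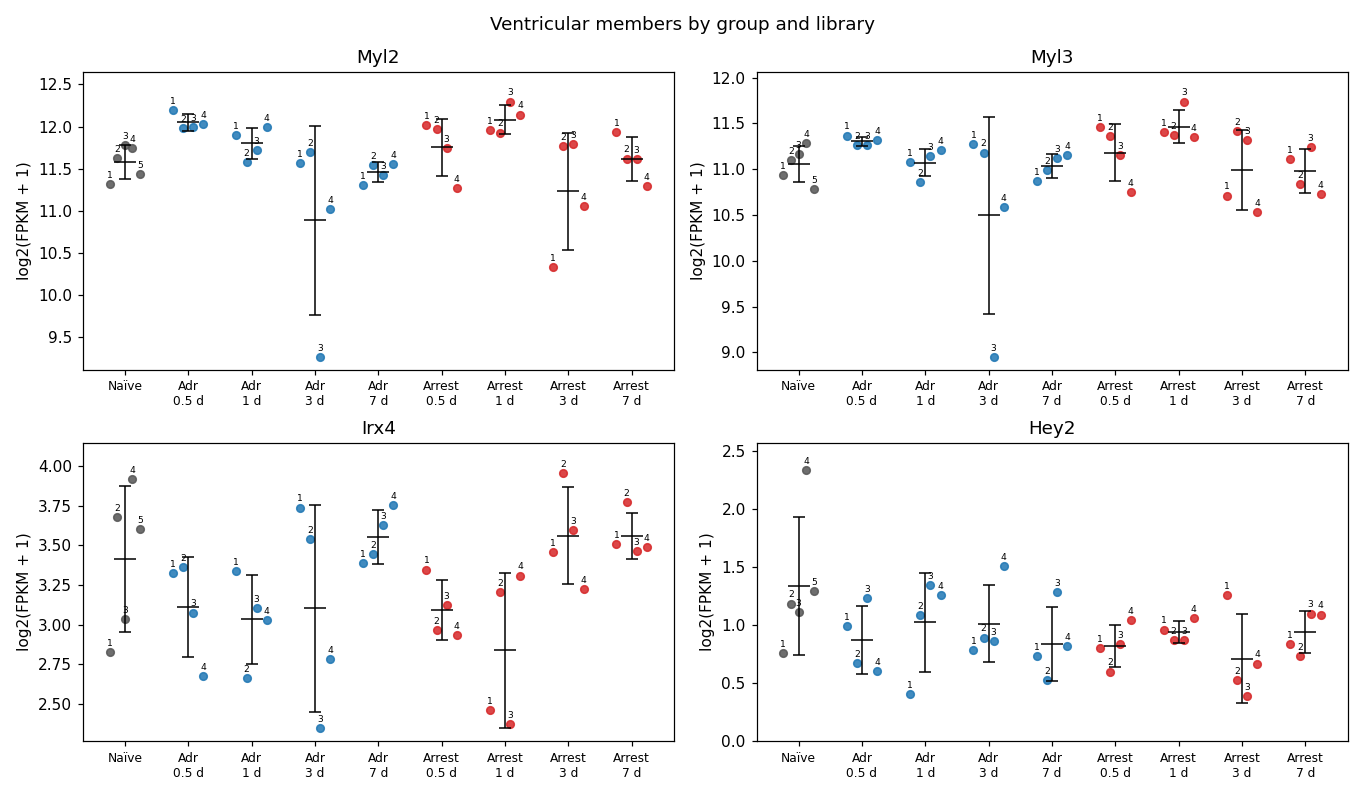
Levels of Myl2, Myl3, Irx4 and Hey2 as log2(FPKM + 1), by group, with a number for the replicate and black bars for the mean ± SD; the vertical axes of Myl2, Myl3 and Irx4 do not start at 0. Replicate 3 of Adr at 3 days is the lowest point for Myl2, Myl3 and Irx4, and replicate 4 of Naïve the highest for Hey2.

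Myl2, the ventricular regulatory light chain, stood at 2542, 3147, 3521, 3427 and 2770.0 FPKM in Naïve. Adr libraries had 4697, 4029, 4091 and 4171 FPKM at 0.5 days and 3822, 3067, 3373 and 4083 FPKM at 1 day. All 4 Adr libraries of 0.5 days lay above every Naïve library, a pattern met by 3.36% of the 16530 genes tested. At 3 days Adr gave 3031, 3314, 613 and 2071 FPKM and at 7 days 2523, 2977, 2739.8 and 3017 FPKM of Myl2. Replicate 3 at 3 days lay far below all others.

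In Arrest, Myl2 stood at 4159.6, 4003, 3426 and 2471 FPKM at 0.5 days and at 3969.8, 3898, 5032 and 4518 FPKM at 1 day. All 4 Arrest libraries of 1 day lay above Naïve for Myl2 and likewise for Myl3, a pattern met by 5.71% of the genes tested. At 3 days Arrest gave 1283, 3479, 3540.4 and 2126 FPKM, and at 7 days 3900.3, 3145, 3139 and 2499.7 FPKM. By group mean, Myl2 was highest in Arrest at 1 day (4355 ± 529.9 FPKM, SD, n = 4), next in Adr at 0.5 days (4247 ± 305 FPKM, n = 4), and lowest in Adr at 3 days (2257 ± 1218 FPKM, n = 4), against 3082 ± 419.9 FPKM (n = 5) in Naïve. The last place rested on replicate 3: without it Adr at 3 days had a mean of 2805 FPKM (n = 3), and Arrest at 3 days was lowest (2607 ± 1098 FPKM, n = 4). With all libraries, groups next to each other in the order of the means differed by less than the larger SD of the pair, with the exception of Adr at 0.5 days and the group after it, Adr at 1 day (3586 ± 453.8 FPKM, n = 4).

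Myl3, the ventricular essential light chain, stood at 1962, 2197, 2289, 2501 and 1766 FPKM in Naïve. In Adr it gave 2641, 2453, 2453 and 2561 FPKM at 0.5 days, 2164, 1858, 2261 and 2364 FPKM at 1 day, 2477, 2323, 494 and 1536 FPKM at 3 days, and 1869, 2036, 2225 and 2278 FPKM at 7 days. In Arrest it gave 2814, 2625, 2286 and 1725 FPKM at 0.5 days, 2707, 2643, 3418 and 2610.1 FPKM at 1 day, 1678, 2731, 2546 and 1483 FPKM at 3 days, and 2206, 1826, 2421 and 1696 FPKM at 7 days. Myl3 followed Myl2 from library to library. Across the 37 libraries, which share their tissue and scaling, Pearson's r on log2(FPKM + 1) was 0.92 and Spearman's rho 0.84, and r was 0.87 without the 2 libraries farthest from the median.

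The ratio of Myl2 to Myl3 was 1.44 ± 0.114 (SD, n = 5) in Naïve, 1.68 ± 0.0677 in Adr at 0.5 days and 1.66 ± 0.121 in Adr at 1 day (n = 4 each). It was lowest in replicate 1 of Arrest at 3 days, at 0.765, the single library where Myl3 exceeded Myl2. In that library the geometric mean of 9 sarcomere genes that both chambers use (Myh6, Actc1, Tnnt2, Tnni3, Tnnc1, Tpm1, Mybpc3, Ttn and Actn2) was 522 FPKM, against 619 to 742 FPKM in Naïve.

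Irx4, a ventricular transcription factor, ranged from 6.10 to 14.1 FPKM in Naïve (median 11.1 FPKM). Its group medians were 8.23 FPKM in Adr at 0.5 days, 7.38 FPKM at 1 day, 8.25 FPKM at 3 days and 10.6 FPKM at 7 days. In Arrest they were 7.25, 6.36, 10.5 and 10.3 FPKM at the same times. Every group overlapped Naïve. The lowest library was replicate 3 of Adr at 3 days, at 4.08 FPKM.

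Hey2, a repressor in compact ventricular muscle and a target of Notch signalling elsewhere, was measured at 0.696, 1.27, 1.16, 4.05 and 1.46 FPKM in Naïve. Its mean was lower in all 8 treated groups, between 0.682 FPKM (Arrest at 3 days) and 1.10 FPKM (Adr at 1 day), against 1.73 ± 1.33 FPKM (SD, n = 5) in Naïve. Replicate 4 raised the Naïve mean, and every group overlapped the other 4 Naïve libraries. At 22 to 253 fragments a library, Hey2 was the least well counted of the ventricular members.

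Replicate 3 of Adr at 3 days stood apart from the rest and carried both the second highest Myl7 level and the lowest Myl2 and Myl3 levels. The geometric mean of the 9 shared sarcomere genes was 194 FPKM there, and 405 FPKM in the next lowest library, replicate 4 of the same group. The share of fragments on mitochondrial genes was 9.36%, against 20.8% to 30.9% in the other 36 libraries. Measured against the shared sarcomere genes, Myl2 was at a log2 ratio of 1.66 in this library and between 1.91 and 2.47 in Naïve, and lower still, at 1.30, in replicate 1 of Arrest at 3 days. Per the study's methods 1 Adr library of 3 days was set aside for poor quality, and the labels do not say which. In the main comparisons below, the Adr differences at 3 days that are quoted are therefore given with and without replicate 3. Not every member is quoted there. Without it the Adr means at 3 days were 2805 ± 651.7 FPKM for Myl2, 2112 ± 504.8 FPKM for Myl3 and 1.14 ± 0.615 FPKM for Hey2 (SD, n = 3), and the median of Irx4 was 10.6 FPKM.

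The atrial light chains were a small share of each pair. Of Myl7 plus Myl2 summed in FPKM, Myl7 made up 0.0732% to 0.222% in Naïve. It made up 26.8% in replicate 3 of Adr at 3 days, 12.7% in replicate 2 of Adr at 1 day, 4.75% in replicate 2 of Arrest at 7 days, and 3.81% and 3.49% in replicates 4 and 3 of Adr at 7 days. Of Myl4 plus Myl3, Myl4 made up 0% to 0.0426% in Naïve and 6.01%, 2.53%, 1.34%, 0.843% and 0.691% in the same 5 libraries in turn. The order of these libraries was thus the same for both pairs. The largest share belonged to the library with the low ventricular levels, not to the one with the most Myl7. In bulk tissue, more atrial muscle in a sample and more atrial RNA per cell cannot be told apart.

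**Figure D3:**
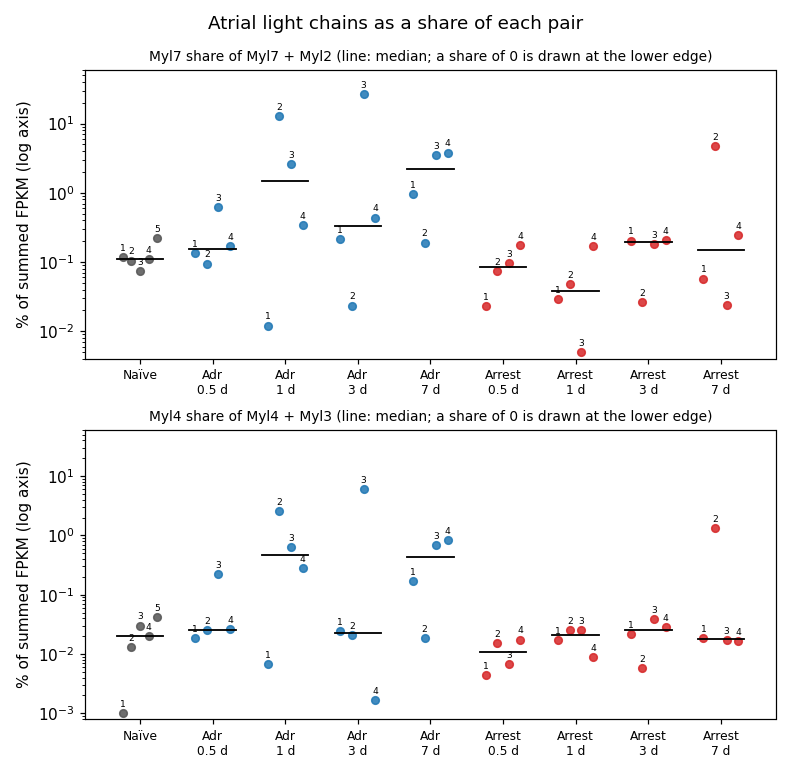
Share of the atrial light chain in each pair, in % of summed FPKM on a log axis, by group; points are libraries numbered by replicate, the line is the group median, and a share of 0 is drawn at the lower edge. The 5 highest points of both panels are the same libraries, led by replicate 3 of Adr at 3 days at 26.8% and 6.01%.

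Libraries with much Myl7 differed in their ventricular levels. Replicate 2 of Adr at 1 day, with 445 FPKM of Myl7, had 3067 FPKM of Myl2, and replicate 2 of Arrest at 7 days, with 157 FPKM of Myl7, had 3145 FPKM. Both values lay within the Naïve range of 2542 to 3521 FPKM. Their Myl3 levels, 1858 and 1826 FPKM, lay in the lower part of the Naïve range of 1766 to 2501 FPKM. Over the 37 libraries Pearson's r of Myl7 and Myl2 was -0.37 and Spearman's rho -0.28, and r was -0.17 without the 2 libraries farthest from the median of Myl7. For Myl3 and Myl7, r was -0.48 and rho -0.39, the most negative of the ventricular members, and r was -0.29 without the 2 farthest libraries. For Irx4 and Myl7, r was -0.07, and for Hey2 and Myl7 it was 0.15.

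**Figure D4:**
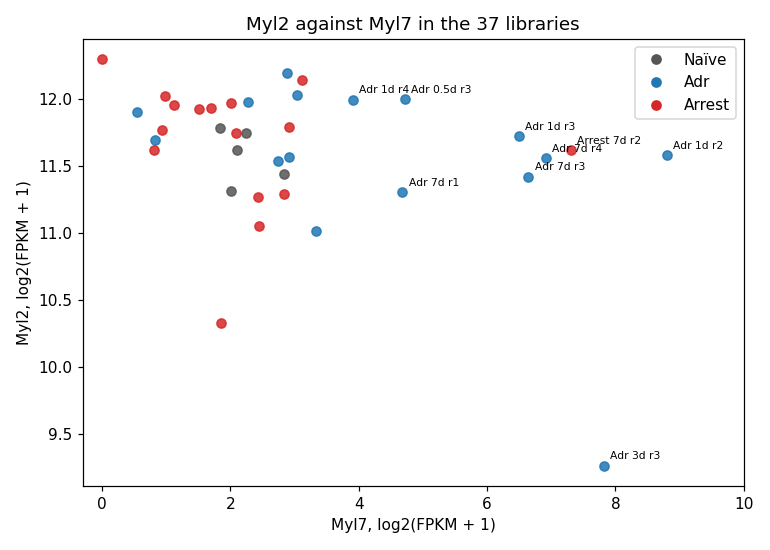
Myl2 against Myl7, both as log2(FPKM + 1), in the 37 libraries, coloured by arm; the 9 libraries with the most Myl7 are named (r, replicate), and the vertical axis does not start at 0. Of these 9, 8 lie within the Myl2 range of the other 28 libraries and Adr 3d r3 lies below all of them.

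The 8 treated groups were set against Naïve in 1 limma fit over all 16530 genes that reached 0.5 FPKM in at least 4 libraries. Of the 8 members, 7 passed this filter; Sln passed through 11 libraries, none of them Naïve. Differences are in log2(FPKM + 1), which understates changes at low levels, and a call is an adjusted p of at most 0.05 by the Benjamini-Hochberg method over all tested genes. No atrial member was called in any of the 8 comparisons (0 of 24 pairs of gene and comparison), nor any ventricular member (0 of 32 pairs), where 1.42% of all such pairs were called. At an unadjusted p of at most 0.05, limma marked 6 of the 24 atrial and 5 of the 32 ventricular pairs, where 13.4% of all pairs were marked. By comparison, the share of all genes marked in this way was 14%, 14.7%, 13.9% and 6.15% in Adr and 18.2%, 21.7%, 13.7% and 5.15% in Arrest, from the earliest time to the latest.

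The 6 atrial pairs were Sln, Myl7 and Myl4 in Adr at 1 day and at 7 days. At 1 day Sln was 3.10 ± 1.09 (SE) above Naïve, Myl7 2.73 ± 1.25 and Myl4 2.67 ± 0.91 on the log2 scale, with adjusted p of 0.163, 0.300 and 0.151 in limma. At 7 days the differences were 2.39 ± 1.09, 3.03 ± 1.25 and 2.22 ± 0.91, with adjusted p of 0.786, 0.746 and 0.746. The residual SD of a library over all 9 groups was 1.63 for Sln, 1.87 for Myl7 and 1.36 for Myl4. Adr at 1 day had 0.69% of all genes called, and Adr at 7 days 0%. Since Naïve had no Sln, its fitted difference depends on the pseudocount and is no measure of fold.

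Single libraries moved several of these values. Without replicate 2 of Adr at 1 day, Sln fell to a difference of 1.83, Myl7 to 1.45 and Myl4 to 1.85, the lowest of the fits that leave out a library. The highest of these fits gave 4.13 for Sln, 4.19 for Myl7 and 3.66 for Myl4. Without replicate 3 of Adr at 3 days, the differences of that group from Naïve went from 1.48 to 0 for Sln, from 1.52 to 0.15 for Myl7 and from 1.07 to -0.08 for Myl4. Without replicate 2 of Arrest at 7 days, Myl7 went from 0.95 to -0.43 and Myl4 from 1.00 to -0.05 against Naïve. In the remaining Arrest groups Myl7 was -0.33 at 0.5 days, -0.77 at 1 day and -0.17 at 3 days, each with a standard error of 1.25. That standard error rests on the spread pooled over all 9 groups, the high Adr libraries included, not on these Arrest and Naïve libraries alone. Arrest had 3.21%, 7.11%, 0.139% and 0% of all genes called at the 4 times in turn.

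Among the ventricular pairs with an unadjusted p of at most 0.05, Myl2 was -0.69 ± 0.31 in Adr at 3 days and Irx4 -0.57 ± 0.24 in Arrest at 1 day (limma adjusted p of 0.311 and 0.145). Hey2 was -0.62 ± 0.23 in Arrest at 3 days, -0.52 ± 0.23 in Arrest at 0.5 days and -0.50 ± 0.23 in Adr at 7 days (adjusted p of 0.208, 0.229 and 0.790). Without replicate 4 of Naïve, the differences of Hey2 were -0.38, -0.27 and -0.25 in turn. Without replicate 3 of Adr at 3 days, the difference of Myl2 in that group was -0.15 and that of Myl3 went from -0.56 to -0.04. For Arrest at 1 day, Myl2 was 0.50 ± 0.31 and Myl3 0.41 ± 0.28 above Naïve (adjusted p of 0.363 and 0.416), and for Adr at 0.5 days Myl2 was 0.47 ± 0.31 (adjusted p of 0.525). A fit of Arrest at 1 day and Naïve alone gave Myl2 a difference of 0.50 with an adjusted p of 0.0415 in limma, the single call of a member in any fit run, where 7.94% of the 13258 genes tested in that fit were called. Adr at 0.5 days had 0.188% of all genes called and Adr at 3 days 0%.

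Arrest was then compared with Adr at the same time. None of the 28 pairs was called in limma, where 0.00151% of all pairs were, and 3 had an unadjusted p of at most 0.05, against 4.59% of all pairs. By time, limma called 0%, 0%, 0% and 0.00605% of all genes and marked 3.86%, 6.59%, 5.37% and 2.52% at the unadjusted p. The 3 pairs were the atrial members at 1 day: Myl7 was -3.50 ± 1.32, Sln -2.86 ± 1.15 and Myl4 -2.55 ± 0.96 in Arrest relative to Adr (limma adjusted p of 0.661, 0.702 and 0.661). At 0.5, 3 and 7 days Myl7 was -1.35, -1.69 and -2.08, with standard errors of 1.32. Without replicate 2 of Adr, the differences at 1 day were -2.21 for Myl7, -1.59 for Sln and -1.74 for Myl4. Over the fits that leave out a library, the most negative differences at 1 day were -4.96, -3.89 and -3.54 in turn. The Myl7 difference was -0.32 at 3 days without replicate 3 of Adr, and -3.46 at 7 days without replicate 2 of Arrest. Myl2 differed by -0.30, 0.28, 0.35 and 0.16 at the 4 times and Myl3 by -0.12, 0.39, 0.50 and -0.06, with standard errors of 0.33 and 0.29. Without replicate 3 of Adr, the differences at 3 days were -0.19 for Myl2 and -0.02 for Myl3. The change from 0.5 to 1 day did not differ by a called amount between the arms for any of the 7 tested members (0 of 7 at an unadjusted p of at most 0.05 in limma, against 3.3% of all genes, and 0% of all genes called).

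Other atrial genes, from a list written for this purpose, were mixed. Of 13, 12 were tested, and none was called in an Adr group. Mybphl, a myosin-binding protein of atrial and conduction muscle, was at 0 in all 5 Naïve libraries and reached 14.4, 10.9 and 7.54 FPKM in the 3 libraries with the most Myl7. In the libraries ranked 8 and 9 for Myl7, replicate 1 of Adr at 7 days and replicate 4 of Adr at 1 day, it stood at 0 and 0.608 FPKM. Dkk3, a secreted protein of the Dickkopf family, stood at 1.204 to 5.80 FPKM in Naïve and at 27.1 FPKM in replicate 3 of Adr at 1 day, its highest library. Nppa, the atrial natriuretic peptide that stressed ventricles also make, reached 169 FPKM in replicate 3 of Adr at 3 days, and stood at 129.9 and 95.7 FPKM in replicates 4 and 1 of Arrest at 3 days, which had 4.43 and 2.62 FPKM of Myl7.

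The potassium channel subunits Kcnj3 and Kcnj5, which form the acetylcholine-gated current of the atrium, did not follow Myl7. Their Pearson's r with Myl7 over the 37 libraries was -0.03 and 0.08. Both fell in Arrest at 1 day against Naïve, Kcnj3 by 0.89 ± 0.24 (SE) and Kcnj5 by 0.84 ± 0.26 on the log2 scale (limma adjusted p of 0.0209 and 0.0422), the 2 called genes of the list in any comparison. The median difference of the list in that comparison was -0.09, against 0.03 for all tested genes, of which 7.11% were called. Of the sinus node genes, Isl1 was at 0 in all 37 libraries and Shox2 reached 1.06 FPKM.

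Of 10 other ventricular genes, 9 were tested and none was called in any comparison. Pln ranged from 142 to 782 FPKM and Fhl2 from 242 to 1222 FPKM over the 37 libraries. The calcium pump Atp2a2, on which both Sln and Pln act, ranged from 427 to 1754 FPKM. None of the 5 genes of the pump and its small regulators was called in any comparison.

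Among 10 transcription factors shared by both chambers, Tbx20, Mef2a and Mef2c fell in Arrest at 0.5 days and at 1 day against Naïve. At 1 day Tbx20 fell by 0.69 ± 0.15, Mef2a by 0.60 ± 0.12 and Mef2c by 0.58 ± 0.15 on the log2 scale (limma adjusted p of 0.00487, 0.00257 and 0.0174). The other 7, among them Nkx2-5, Gata4 and Srf, were not called in any comparison. Of all tested genes, 3.21% were called in Arrest at 0.5 days and 7.11% at 1 day. Of the receptors and targets of the BMP10 pathway, 10 of 11 were tested. Its target Id1 rose by 0.90 ± 0.23 and Id3 by 0.77 ± 0.17 in Arrest at 1 day (limma adjusted p of 0.0161 and 0.00555), and Id3 rose by 0.64 ± 0.17 at 0.5 days (0.0342), with Bmp10 itself at 0. The receptor Acvrl1 ranged from 8.96 to 16.3 FPKM. None of the 8 Notch and Hey pathway genes was called.

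Among 9 other light chain genes and their kinases, the non-muscle light chain Myl12a rose by 0.67 ± 0.18 and the fast skeletal Mylpf fell by 1.06 ± 0.32 in Arrest at 1 day (limma adjusted p of 0.0216 and 0.0384). The smooth muscle kinase Mylk fell in Arrest at 0.5 days by 0.42 ± 0.12 and at 3 days by 0.61 ± 0.12 (0.0469 and 0.0224). Of all tested genes, 3.21%, 7.11% and 0.139% were called in Arrest at 0.5, 1 and 3 days. The cardiac kinase Mylk3, which phosphorylates Myl2, ranged from 29.1 to 131 FPKM and was not called.

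The genes most like the atrial members were sought among the 11542 other tested genes with a mean of at least 1 FPKM, by Pearson's r with the mean z-score of Sln, Myl7 and Myl4 over the 37 libraries. Mybphl came first (r = 0.96, rho = 0.65), then Hamp, which encodes hepcidin (0.92, 0.64), and Dkk3 (0.90, 0.70). They were followed by Cyp2e1, a cytochrome of liver and fat (0.85, 0.64), and Chad, a cartilage matrix protein (0.83, 0.54). The list went on with Cfd, the adipocyte protease adipsin (0.75, 0.55), the lipid droplet protein Cidec (0.74, 0.50), the Wnt ligand Wnt9b (0.73, 0.48), the Wnt inhibitor Wif1 (0.72, 0.56) and the carbonic anhydrase Car3 of muscle and fat (0.71, 0.51).

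**Figure D5:**
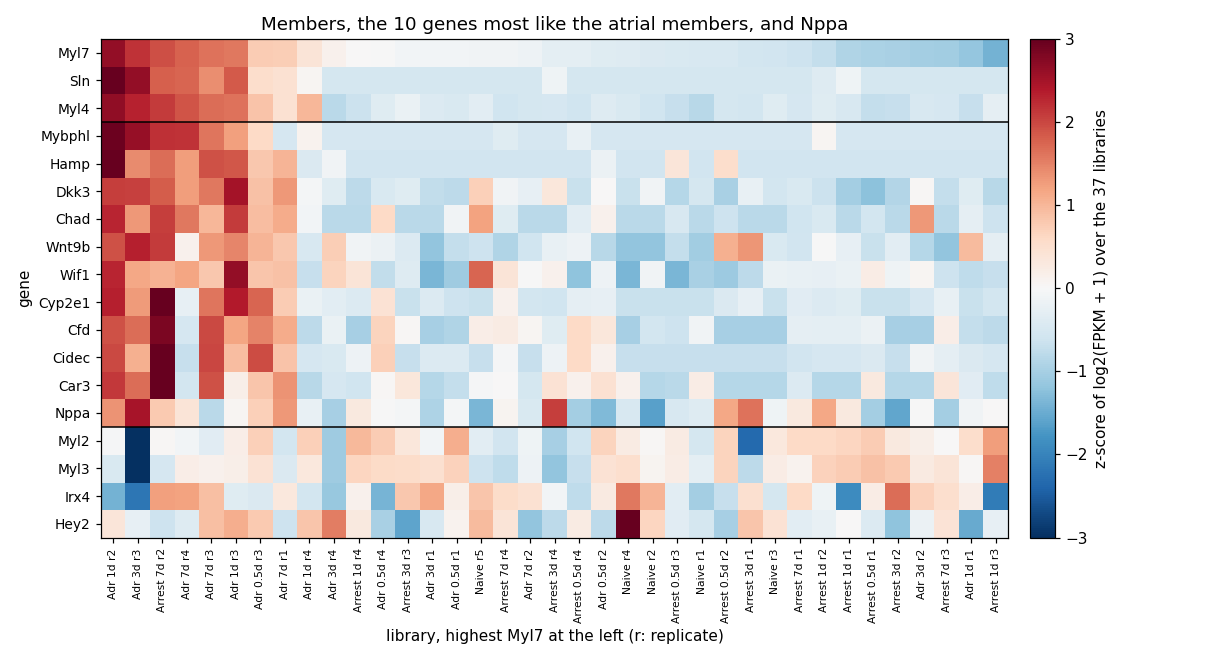
Heat map of z-scores of log2(FPKM + 1) over the 37 libraries; rows are genes, columns are libraries with the highest Myl7 at the left, and lines divide the atrial members, other genes and the ventricular members. The 9 columns at the left are high for Sln and Myl4 as well. Among them, replicate 4 of Adr at 7 days and replicate 4 of Adr at 1 day are not high for Cyp2e1, Cfd, Cidec or Car3.

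Some fat cell genes were high in several of the same libraries, among them Cfd, which was picked above for its likeness to the atrial members. Cfd stood at 0 to 2.66 FPKM in Naïve and at 64.4, 25.01, 22.7 and 17.3 FPKM in replicate 2 of Arrest at 7 days, replicate 3 of Adr at 7 days, replicate 2 of Adr at 1 day and replicate 3 of Adr at 3 days. Adipoq, which encodes adiponectin, reached 10.7 FPKM in the first of these and 1.46 FPKM at most elsewhere, with 0 to 1.38 FPKM in Naïve. Retn and Plin1 were at 0 in Naïve and reached 6.81 and 3.32 FPKM in replicate 2 of Arrest at 7 days. Pearson's r with Myl7 over the 37 libraries was 0.65 for Retn, 0.71 for Plin1 and 0.45 for Adipoq (rho 0.37, 0.68 and 0.39). Replicate 4 of Adr at 7 days, with 119.5 FPKM of Myl7, had 0.717 FPKM of Cfd and no Adipoq. Replicate 4 of Adr at 1 day, with 14.1 FPKM of Myl7, had 0.252 FPKM of Cfd and no Adipoq. Of the 7 fat genes listed, the brown fat gene Ucp1 was at 0 in 35 libraries and Elovl3 in 32. The summed level of the list was 15.01 to 24.3 FPKM in Naïve, 14.2 to 44.3 FPKM over the Adr groups and 11.4 to 95.2 FPKM over the Arrest groups. Cidea alone gave 4.90 to 30.5 FPKM, with its highest level in replicate 3 of Arrest at 1 day, where Myl7 was at 0. None of the 5 tested was called. The part of fat tissue in the atrial levels was not tested.

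Markers of skeletal muscle, lung surfactant and nerve were low. Of 7 skeletal muscle genes, Myh4 was at 0 in all libraries and the list summed to 0.797 to 5.41 FPKM. Besides Mylpf, Tnni2 of fast muscle was called in Arrest at 1 day, where it rose by 0.96 ± 0.30 (limma adjusted p of 0.0425). The lung surfactant genes Sftpc, Sftpb and Sftpa1 reached 0.912 FPKM at most, and the airway gene Scgb1a1 reached 65.5 FPKM in replicate 1 of Arrest at 7 days, a library with 2.25 FPKM of Myl7. The lung list, Scgb1a1 included, also summed to 43.4 FPKM in replicate 2 of Arrest at 3 days, with 0.909 FPKM of Myl7. No lung gene was called. Of 5 nerve genes, Th was at 0 in 36 libraries and Dbh fell by 1.00 ± 0.27 and 0.95 ± 0.27 in Arrest at 0.5 and 1 day (limma adjusted p of 0.0344 and 0.0261). In these 2 comparisons 3.21% and 7.11% of all tested genes were called.

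Of 5 smooth muscle genes, Myh11 fell by 1.09 ± 0.25 in Adr at 1 day and by 0.90 ± 0.25 in Arrest at 1 day, where the elastin gene Eln rose by 1.10 ± 0.25 (limma adjusted p of 0.0328, 0.0227 and 0.00786). At 1 day 0.69% of all tested genes were called in Adr and 7.11% in Arrest. No gene was called in any comparison among the 9 shared sarcomere genes, 6 genes of epicardium and mesothelium, 6 tested sinus node genes and 3 tested red blood cell genes. The mesothelial gene Upk3b ranged from 1.40 to 42.8 FPKM, with its highest level in replicate 1 of Adr at 7 days.

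The genes most like Myl2 and Myl3 by the same measure were the muscle subunit Cox6a2 of cytochrome oxidase (r = 0.98, rho = 0.92), myoglobin (Mb, 0.96 and 0.84), the complex III subunit Uqcrfs1 (0.95, 0.91), the calcium sensor S100a1 (0.95, 0.89) and Cox5b (0.94, 0.95). Without replicate 3 of Adr at 3 days, r was 0.94, 0.89, 0.87, 0.87 and 0.92 in turn. Each of these 5 was highest in replicate 3 of Arrest at 1 day, the library with the most Myl2 and Myl3, which follows in part from how they were picked. That library had no Myl7 but 0.851 FPKM of Myl4, against at most 0.753 FPKM in Naïve.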

How the data were processed

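RNA from the 37 ventricular samples was sequenced as paired reads. Per the study's methods, reads passed FastQC and were aligned with HISAT2 version 2.0.5; the counter, genome build and annotation are not given in the sources used here. The authors deposited FPKM per gene and library for 56748 genes. Every FPKM times gene length was a whole multiple, within 0.01, of the value of 1 fragment, which gave back the fragments behind each value (13.2 to 30.2 M a library). Gene positions in the deposited table are not those of GRCm38, so none is printed. Columns were matched to samples by name, and groups came from the labels.

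Levels were scaled by a common factor of 1.01 (median ratio) and tested as log2(FPKM + 1) with limma 3.58.1 in R 4.3.3 (empirical Bayes with trend), 1 mean per group, on genes of at least 0.5 FPKM in at least 4 libraries (16530 genes). The Benjamini-Hochberg adjustment ran over all tested genes, separately by comparison, and genes with an adjusted p at or under 0.05 were called. Standard errors and residual SDs are those after the empirical Bayes step, with 1 spread per gene pooled over all groups in a fit. No count model was run on the recovered fragments. The labels give a replicate number and a number in the sample description without saying that samples are separate animals, so p-values measure the spread between these samples. The procedure was tested on simulated data with 195 changed genes in Arrest at 0.5 days. Against Naïve it called 52.3% of them, and 6.42% of its calls were unchanged genes. With no change simulated, it called no gene. A gene that is not called may thus still differ.

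The members, the 18 gene lists and the tests were chosen with earlier results of these data known. The genes named are the members, genes of the lists, the 10 genes most like the atrial members and the 5 most like Myl2 and Myl3. Promoters are RefSeq sequences on GRCm38.p6, searched for 7 motifs. Alternatives were other scalings, pseudocounts, filters, covariates (sex, read from X- and Y-linked transcripts, or the number in the description), weights, a replicate block and leaving out each library.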

Additional observations from a re-analysis of the deposited data

Results flagged for a closer look

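Within groups of 4 or 5 libraries, the gap from the highest or lowest library to its neighbour was divided by the range of the group on the log2(FPKM + 1) scale (Dixon's ratio). Of 61 pairs of member and group, 10 passed the 95% critical value. The members were chosen on levels that vary in these libraries, so this count is not set against chance.

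For Sln the ratio was 1 in replicate 3 of Adr at 0.5 days, replicate 3 of Adr at 3 days, replicate 4 of Arrest at 3 days and replicate 2 of Arrest at 7 days, each the only library of its group above 0, which fixes the ratio. For Myl4 it was 0.926 in replicate 3 of Adr at 0.5 days (5.43 FPKM), 0.871 in replicate 3 of Adr at 3 days (31.6 FPKM) and 0.967 in replicate 2 of Arrest at 7 days (24.9 FPKM). These 3 libraries were also high for Myl7 and Sln.

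Among the ventricular members the ratio was 0.864 for Myl3 in replicate 3 of Arrest at 1 day (3418 FPKM, with the other 3 at 2610.1 to 2707 FPKM). It was 0.853 for Irx4 in replicate 2 of Arrest at 7 days (12.6 FPKM against 10.03 to 10.4 FPKM) and 0.852 for Hey2 in replicate 4 of Adr at 3 days (1.85 FPKM against 0.723 to 0.856 FPKM).

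At 0.5 days all 4 Adr libraries lay above the Naïve mean of Myl4 and all 4 Arrest libraries below it, on the log2 scale. The mean of Naïve is shared by both, and the difference between the arms (-0.86) was not called in the direct limma comparison (adjusted p of 1).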

How the results depend on the processing

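Among the other settings, the FPKM as deposited differed from the main fit only by the common factor of 1.01. No atrial member was called against Naïve or between the arms under any of the other settings run for them (12) or 37 fits that left out a library. The number of calls for ventricular members against Naïve was 0 in each of these fits but that of only the 2 compared groups, where it was 1 (Myl2 in Arrest at 1 day, adjusted p of 0.0415), a fit that takes its spread from 9 libraries in place of 37. With the replicate block, the number of calls was 0 for every set of members. The replicate numbers do not pair the samples: the correlation of deviations had a median of 0.00194 over 144 pairs of samples with the same number, and 19 of these were over 0.1. The lowest adjusted p when a library was left out was 0.0576, for Myl4 in Adr at 1 day. Of 4476 pairs of value and setting, 14 moved by more than 1 residual SD. They include Sln with a pseudocount of 0.1 (5.37 in Adr at 1 day and 4.73 at 7 days), Hey2 with the number in the sample description as covariate (0.16 in Adr at 3 days and 0.05 in Arrest at 1 day, both negative in every other fit) and Myl2 and Myl3 in Adr at 3 days with sample quality weights (-0.20 and -0.08). With the mean atrial level as a covariate, an alternative added after the data were seen, no ventricular member was called. Levels under 3 fragments (up to 0.394 FPKM for Myl7) could not be told from 0.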
